A study of Mus musculus with 12 samples.

Results

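In white fat of mice on a high-fat diet, 107 of 32182 genes had a depot bias that pointed one way in adipocytes and the other way in the stromal vascular cells (SVCs) of the same depots. Epididymal adipose tissue (EAT) is a visceral depot and inguinal adipose tissue (IAT) a subcutaneous one. Members were chosen on deposited TPM, a level scaled for gene length and sequencing depth. The mean of 3 libraries plus 0.1 TPM had to differ at least 1.6-fold between depots in both fractions, in opposite directions. The highest of the 4 group means had to reach 2 TPM, which 13747 genes did, and the EAT and IAT libraries were not allowed to overlap within either fraction. Of the members, 90 were lower in EAT adipocytes and higher in EAT SVCs than in their IAT counterparts, and are called the inguinal-adipocyte set here. The other 17 went the reverse way, up in EAT adipocytes and down in EAT SVCs, and are called the epididymal-adipocyte set. The names say only in which depot's adipocytes the level was higher, not where a gene was most abundant.

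The RNA came from male C57BL/6J mice, an inbred strain, that were 8 weeks old when a high-fat diet began and stayed on it for 10 weeks. All 4 groups share strain, sex and diet, and no group on another diet was analysed here. Collagenase digestion split each depot into adipocytes and SVCs, and each of the 4 groups (EAT adipocytes, IAT adipocytes, EAT SVCs, IAT SVCs) had 3 libraries of 20707325 to 26349357 expected counts. The labels do not say whether replicates came from separate animals or pools, so the spread between libraries may be technical.

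Adipocytes store triglyceride in a single large droplet, take up and release fatty acids, and secrete hormones such as leptin and adiponectin. The SVC fraction is everything else that collagenase frees: adipocyte precursors and other fibroblasts, endothelial and mural cells, and immune cells, among which macrophages accumulate in visceral fat during obesity. Because the RNA is bulk, fewer cells of a type and less RNA per cell cannot be told apart in any level below. The deposited tables name genes by UCSC transcript identifiers without symbols, and the reference tables used here hold no such identifiers. Members are therefore described by level and pattern, and only the leading 2 of each set are given by identifier. Marker genes of the labelled cell types were not analysed here for the same reason, so the fraction labels were not checked against them.

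Opposite bias was rare beside shared bias. By the same ratio and overlap conditions, 548 of 13747 genes were higher in EAT in both fractions and 378 were lower in EAT in both. The inguinal-adipocyte set made up 0.655% of these genes and the epididymal-adipocyte set 0.124%. Each condition alone was common: 14% of the genes were lower and 13.6% higher in EAT adipocytes, and 7.76% were higher and 6.29% lower in EAT SVCs. These shares describe how the rule sorts the genes and carry no test.

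**Figure D1:**
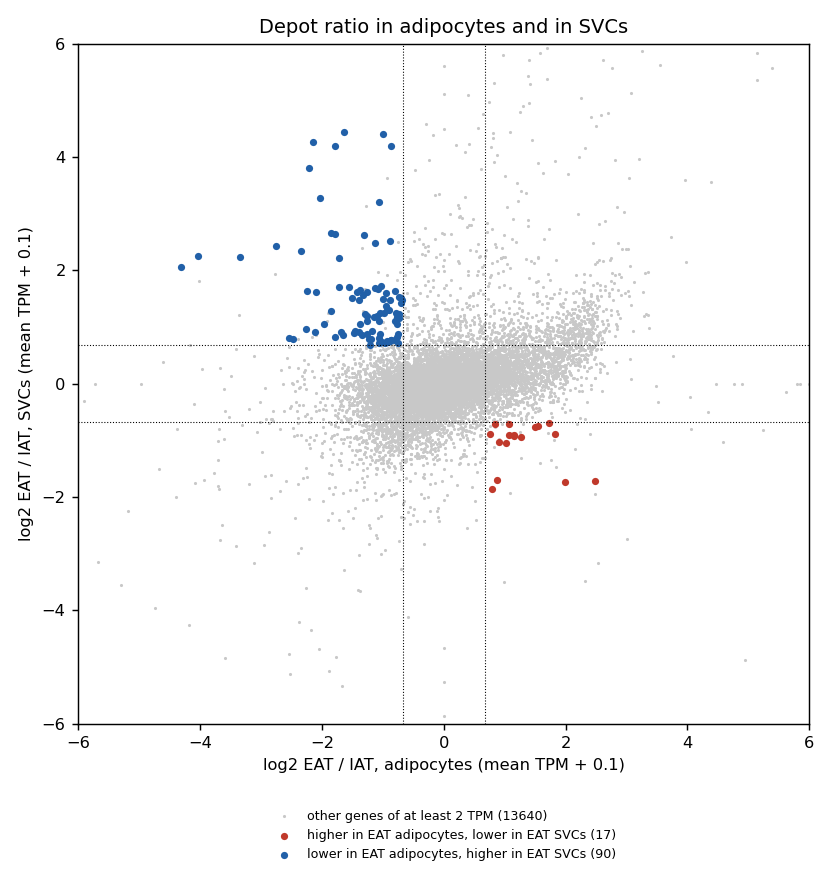
The log2 ratio of EAT to IAT in adipocytes (x axis) against that in SVCs (y axis), from group mean TPM plus 0.1, for genes of at least 2 TPM. Dotted lines mark 1.6-fold. The 90 members at upper left and 17 at lower right face 13640 other genes in grey, and 44 of the grey genes lie beyond the axes.

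The sizes of the ratios, which the rule bounded from below, are given as a description. The median ratio of the inguinal-adipocyte set was 2.27-fold in adipocytes and 2.38-fold in SVCs, against 2.22-fold and 1.88-fold in the epididymal-adipocyte set. At least 2-fold in both fractions were 41 of 90 genes and 3 of 17 genes, and 8 of 90 but 0 of 17 were at least 4-fold in both. Over the genes of at least 2 TPM the median ratio was 1.35-fold in adipocytes and 1.17-fold in SVCs. At the edge of the ratio condition, the 2 innermost members of the inguinal-adipocyte set had smaller ratios of 1.612-fold and 1.613-fold. The nearest genes left out had 1.596-fold and 1.599-fold. For the 17 genes the innermost ratios were 1.619-fold and 1.633-fold, and those just outside were 1.571-fold and 1.593-fold. Genes just inside and just outside thus differed by little.

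Levels of members ranged widely. The highest group mean of a member ran from 2.13 to 1002 TPM, with a median of 15.3 TPM in the inguinal-adipocyte set, 19.7 TPM in the epididymal-adipocyte set and 24.9 TPM over all genes of at least 2 TPM. In 18 of the 107 members it reached 100 TPM, as in 2257 of the 13747 genes, and in 41 it stayed under 10 TPM, as in 3615. At least 1 TPM in all 4 groups was found for 66 members and for 11912 of the 13747 genes. In 4 members 1 or more groups held at most 3 expected counts over 3 libraries, so their ratios rest on few reads.

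Genes of the inguinal-adipocyte set were highest in IAT adipocytes in 62 cases and in EAT SVCs in 28. Over all genes of at least 2 TPM these groups were highest for 3317 and 3704. The lowest group was IAT SVCs for 64 genes of the set and EAT adipocytes for 26, against 2520 and 4318 over all genes. The rule leaves only these groups as the highest and lowest, but not how the genes divide between them. Among the 17 genes the highest group was IAT SVCs for 13 of 17 genes and EAT adipocytes for 4, and IAT adipocytes were lowest for 14 and EAT SVCs for 3. The numbers over all genes lean the same way, with 4715 and 2011 for the highest group and 5370 and 1539 for the lowest. By mean TPM alone, the order of the fractions turned between depots in 40 of the 90 genes, with a higher mean in SVCs in EAT and in adipocytes in IAT. Another 36 were higher in adipocytes in both depots and 14 were higher in SVCs in both. Of the 17 genes, 4 had the turned order (adipocytes higher in EAT, SVCs higher in IAT), 11 were higher in SVCs in both depots and 2 were higher in adipocytes in both. In the fit to counts the sign of the fraction difference turned in 36 of the 90 genes and 5 of the 17. Fewer were also called in both depots in these opposite directions, at an adjusted p below 0.05 by edgeR. These were 18 of the 90 genes (0.715% of all tested genes) and 1 of the 17 (1.3%). The fraction difference was called in EAT alone for 13 and in IAT alone for 25 of the 90, and for 2 and 8 of the 17. For calls in 1 depot alone the shares over all tested genes were not counted, so no excess can be read from them. These counts partly restate the rule, which fixed how the depots differ, and support nothing.

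**Figure D2:**
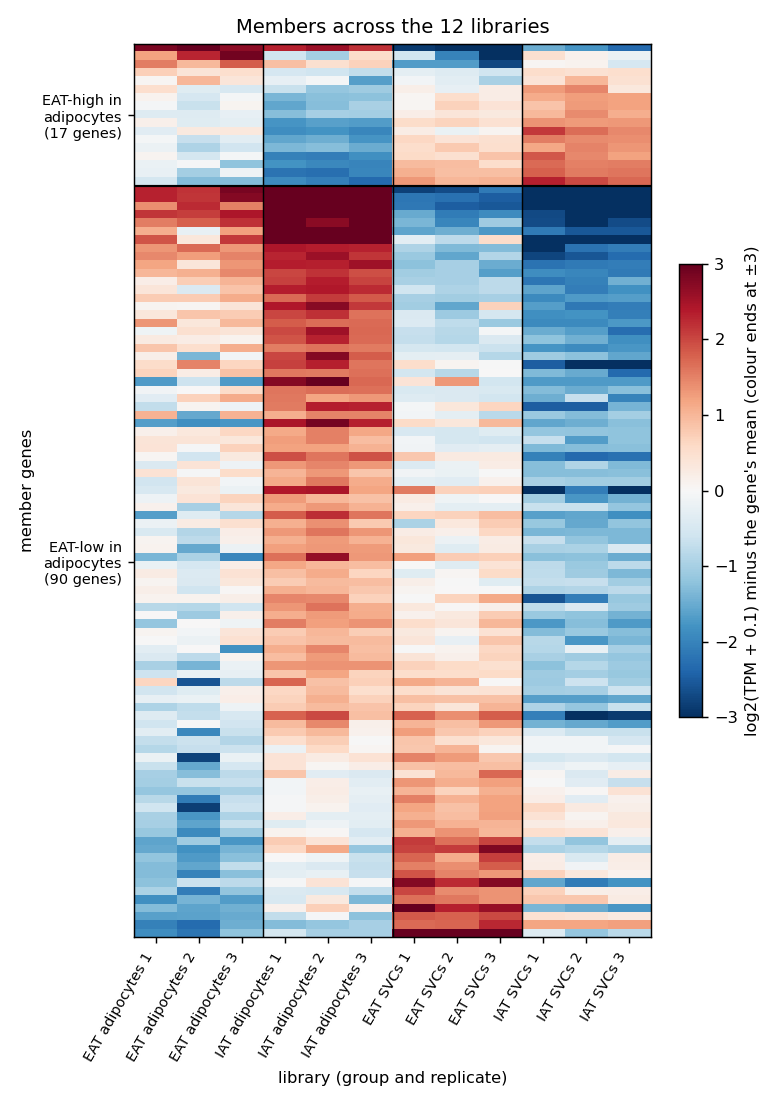
Each row is a member and each column a library; colour gives log2(TPM + 0.1) minus the gene's mean, with the scale ending at ±3. Within each set rows run from the most adipocyte-high to the most SVC-high; the 90 genes of the lower block are red in IAT adipocytes and blue in IAT SVCs at its top, and red in EAT SVCs at its bottom.

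The leading gene of the inguinal-adipocyte set, uc009qty.2 (1 transcript of 958 bases), changed its order completely between depots. It had 2.57, 6.47 and 4.57 TPM in EAT adipocytes and 29.4, 39.0 and 25.5 TPM in IAT adipocytes. In SVCs it had 13.1, 13.6 and 15.98 TPM in EAT and 2.64, 2.77 and 2.26 TPM in IAT. No EAT library came near the IAT libraries of its own fraction: the group means were 4.54 ± 1.95 against 31.3 ± 6.91 TPM in adipocytes and 14.2 ± 1.55 against 2.56 ± 0.265 TPM in SVCs (SD, n = 3). The ratios were 6.77-fold lower in EAT adipocytes and 5.39-fold higher in EAT SVCs. Averaged over depots it was higher in adipocytes, by 1.45 on the log2 scale (SE 0.25, adjusted p = 0.000187, edgeR).

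The second gene of this set, uc007zsl.2 (2 transcripts), was scarce everywhere. It had 0.23, 0.49 and 0.40 TPM in EAT adipocytes and 1.52, 2.75 and 2.62 TPM in IAT adipocytes. In EAT SVCs it had 0.43, 0.60 and 0.76 TPM, and in IAT SVCs it was listed at 0 in replicates 1 and 2 and had 0.11 TPM in replicate 3. IAT adipocytes were thus the only group above 1 TPM. With 0.1 TPM added, the ratios were 5.06-fold lower in EAT adipocytes and 5.10-fold higher in EAT SVCs. The SVC ratio depends on that addition: with 1 TPM added it falls short of 1.6-fold. Its SVC contrast rested on 17 counts in EAT against 1 in IAT, a ratio of 15.9 with a 95% exact counting interval of 2.499 to 666 that covers counting error only. Averaged over depots it was higher in adipocytes by 2.84 on the log2 scale (SE 0.48, adjusted p = 0.000162, edgeR). That average came from IAT, where SVCs held 1 count and the difference was 5.84. In EAT it was -0.16 (adjusted p = 0.808, edgeR).

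The leading gene of the epididymal-adipocyte set, uc009ggf.1 (2 transcripts), was most abundant in IAT SVCs. It had 37.5, 57.9 and 59.3 TPM in EAT adipocytes and 12.9, 13.6 and 12.0 TPM in IAT adipocytes. In SVCs it had 55.3, 41.3 and 49.8 TPM in EAT and 207, 151 and 128 TPM in IAT. The 2 EAT groups overlapped, at 51.6 ± 12.2 and 48.8 ± 7.04 TPM (SD, n = 3), whereas the IAT groups lay far apart, at 12.9 ± 0.807 and 162 ± 40.7 TPM. Averaged over depots this gene fell by 1.53 on the log2 scale from SVCs to adipocytes (SE 0.17, adjusted p = 5.22e-06, edgeR).

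The gene uc009sdg.3 (2 transcripts) came second in that set and was chiefly seen in EAT adipocytes, with 4.22, 8.90 and 13.6 TPM. IAT adipocytes had 1.13, 0.82 and 2.60 TPM. In SVCs it had 1.13, 0.36 and 0.11 TPM in EAT and 2.51, 1.93 and 1.54 TPM in IAT, from 10 and 35 counts. The 3 EAT adipocyte libraries did not cluster, and the SVC values were all low. Its depot difference in SVCs, although without overlap of libraries in TPM, was not called on counts (adjusted p = 0.132, edgeR). Averaged over depots it was higher in adipocytes by 2.25 on the log2 scale (SE 0.46, adjusted p = 0.000762, edgeR). That average came from EAT, where the difference was 4.49. In IAT it was 0.021 (adjusted p = 0.979, edgeR).

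**Figure D3:**
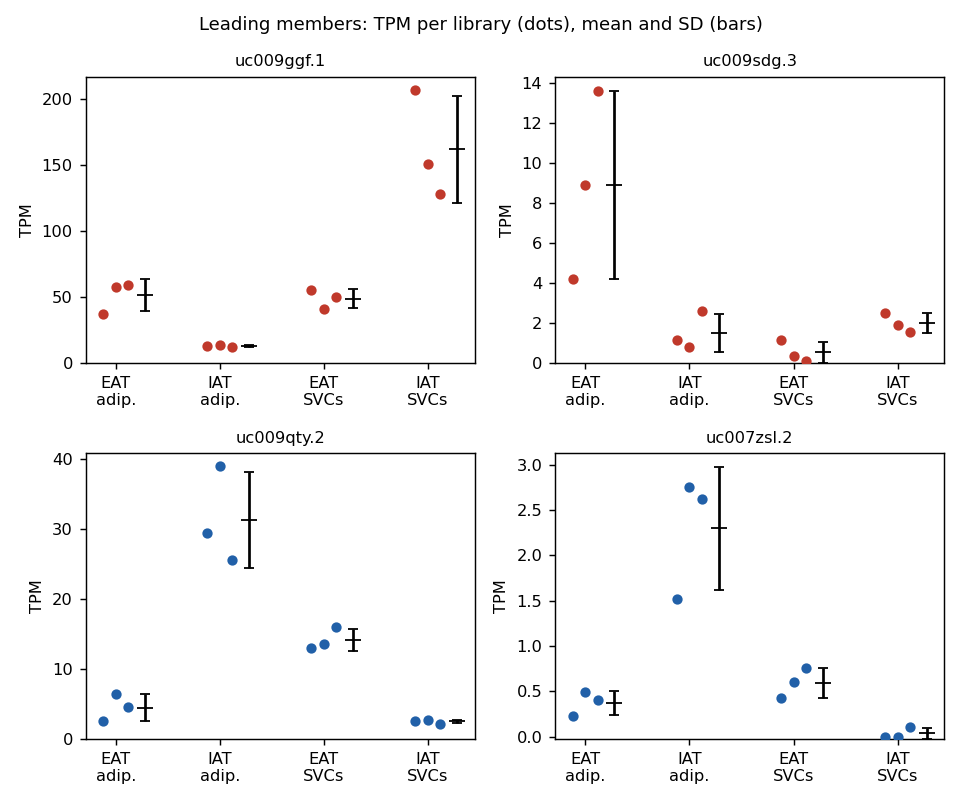
TPM of the 4 leading members in each library (dots, replicates 1 to 3 from left to right) with the mean and SD of the 3 libraries beside them. The upper genes are of the epididymal-adipocyte set and the lower ones of the inguinal-adipocyte set; uc009qty.2 reaches 39.0 TPM in IAT adipocytes and no more than 2.77 TPM in IAT SVCs.

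The ratio and overlap conditions did not use the comparison between the fractions, averaged over depots. Under an equal spread in all groups it is independent of both depot contrasts. The spread was not equal, since EAT adipocyte replicates differed most, so the independence is approximate. The level condition can tilt this comparison, since a scarce gene passes only through the group where it is high. For uc007zsl.2 that group was IAT adipocytes, at a mean of 2.30 TPM. How far this moved the shares below was not tested. The 2 sets divided differently, which was not itself tested. By this average, 64 of 90 genes of the inguinal-adipocyte set had the higher level in adipocytes and 19 in SVCs, with 7 not called. In the epididymal-adipocyte set 4 of 17 were higher in adipocytes and 12 higher in SVCs, with 1 not called. The average need not hold in each depot. Tested per depot, 31 of the 90 were called higher in adipocytes in both depots and 3 higher in SVCs in both. For the 17 genes these numbers were 2 and 4. The like shares over all tested genes were not counted. All 107 members passed the filter on low counts. Of all 15813 tested genes, 32.8% were higher in adipocytes and 42.3% higher in SVCs (edgeR's quasi-likelihood test, adjusted p below 0.05). The tested genes include some below the 2 TPM that a member had to reach, so the backgrounds are not quite alike. The shares were 71.1% and 21.1% in the inguinal-adipocyte set and 23.5% and 70.6% in the epididymal-adipocyte set. The median log2 difference between adipocytes and SVCs was 1.44 (quartiles -0.15 and 2.75) in the former, -1.15 (quartiles -1.57 and 0.35) in the latter and -0.16 over all tested genes.

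Without EAT adipocyte replicate 2, a library that stands apart from its group, the higher level was in adipocytes for 63 and in SVCs for 18 of the 90 genes, and for 4 and 12 of the 17. Large fraction differences were also common in the inguinal-adipocyte set, where 33 of 90 genes were at least 4-fold higher in adipocytes, as were 6.05% of all tested genes. Only 2 of the 90 were at least 4-fold higher in SVCs, as were 11.9% of the tested genes. In the epididymal-adipocyte set 3 and 2 of 17 genes passed these bounds.

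**Figure D4:**
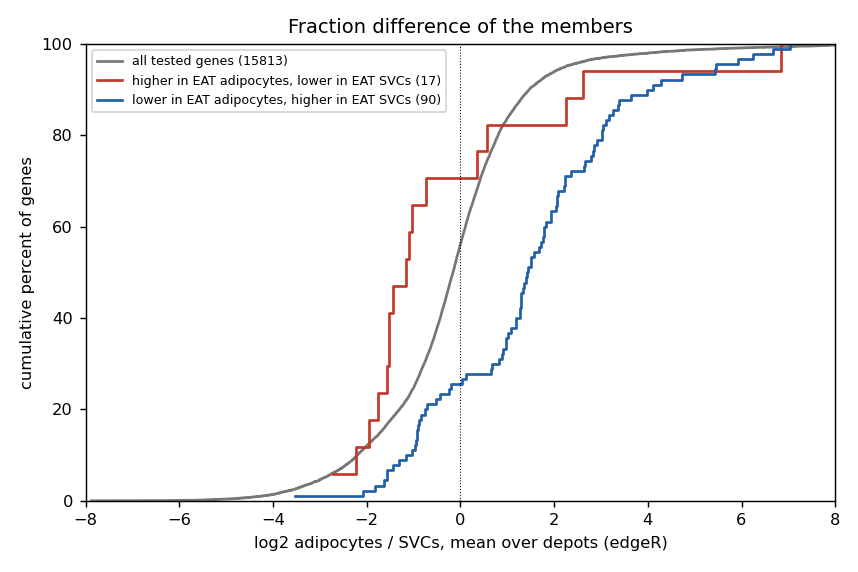
Cumulative percent of genes (y axis) by the log2 difference between adipocytes and SVCs averaged over depots (x axis, edgeR). The curve of the 90 genes of the inguinal-adipocyte set lies to the right of that of all 15813 tested genes (medians 1.44 and -0.16), and the curve of the 17 genes of the other set lies to the left of it around its middle (median -1.15).

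Part of this division is shared by genes held to the rule in only 1 fraction. Among the 1924 tested genes lower in EAT adipocytes, whatever their SVC pattern, 54.4% were higher in adipocytes and 31.7% higher in SVCs. Among the 1058 tested genes higher in EAT SVCs these shares were 29.2% and 39.6%. The 90 members belong to both of these lists, and their 71.1% higher in adipocytes exceeds either. The 857 tested genes lower in EAT SVCs were higher in SVCs in 72.9% of cases, close to the 70.6% of the epididymal-adipocyte set, and the 1865 higher in EAT adipocytes in 47.7%. No test was made of these differences, since the lists share members. Genes lower in EAT in both fractions were higher in adipocytes in 32.6% and higher in SVCs in 57.0% of cases.

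Adipocyte-enriched genes outside the sets were summed in each library. There were 920 non-members at least 4-fold higher in adipocytes (adjusted p below 0.05, edgeR). Their summed TPM made up 2.96% to 3.13% of all TPM in the EAT SVC libraries and 2.94% to 3.06% in the IAT SVC libraries, so the ranges overlapped. In adipocytes they made up 12.2% to 16.2% in EAT and 24.7% to 26.4% in IAT, and their median log2 ratio of EAT to IAT was -0.78 there and -0.0031 in SVCs. Of these genes 464 were called lower and 19 higher in EAT adipocytes, and 79 lower and 55 higher in EAT SVCs. Since their sum differed between the depots in adipocytes themselves, equal sums in SVCs do not show equal amounts of adipocyte RNA. The 33 members of the inguinal-adipocyte set with the same enrichment stood in EAT SVCs at a median of 42.1% of their EAT adipocyte level (quartiles 19.0% and 59.8%), and in IAT SVCs at 4.72% of their IAT adipocyte level (quartiles 1.47% and 8.30%). For the non-members these medians were 21.7% and 11.5%. The rule itself pushes the members' percentages apart, so they are a description. The 1876 non-members at least 4-fold higher in SVCs held 8.65% to 11.5% of TPM in EAT SVCs and 12.4% to 15.99% in IAT SVCs, with no overlap. They held 0.821% to 1.12% in EAT adipocytes and 0.993% to 1.19% in IAT adipocytes. Their part in the members' levels was not tested.

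Within the inguinal-adipocyte set, the 64 genes higher in adipocytes had median levels of 6.84 TPM in EAT adipocytes, 17.1 TPM in IAT adipocytes, 4.61 TPM in EAT SVCs and 1.92 TPM in IAT SVCs. The most abundant of them, chosen after its values were seen (1 transcript of 1966 bases), had 161, 290 and 175 TPM in EAT adipocytes and 1022, 1186 and 799 TPM in IAT adipocytes. Its SVC levels were 13.6, 10.8 and 10.4 TPM in EAT and 7.07, 5.38 and 5.29 TPM in IAT. This gene was 4.81-fold lower in EAT adipocytes and 1.95-fold higher in EAT SVCs, and its SVC levels were far below its adipocyte levels in either depot.

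The 19 genes of that set that were higher in SVCs had median levels of 1.69 and 3.33 TPM in EAT and IAT adipocytes and 14.3 and 4.79 TPM in EAT and IAT SVCs. Their most abundant gene (1 transcript of 1517 bases) reached 980, 940 and 791 TPM in EAT SVCs and 547, 545 and 374 TPM in IAT SVCs. In adipocytes it had 88.0, 119 and 98.1 TPM in EAT and 226, 382 and 123 TPM in IAT, so that EAT replicate 2 nearly met IAT replicate 3. Of the 7 genes with no fraction difference called, the most abundant (2 transcripts, mean length 5801 bases) had 333, 108 and 258 TPM in EAT adipocytes and 714, 813 and 454 TPM in IAT adipocytes. In SVCs the same gene had 983, 722 and 671 TPM in EAT and 310, 261 and 261 TPM in IAT. Its ratios were nearly equal and opposite, 2.83-fold in adipocytes and 2.86-fold in SVCs, and its mean fraction difference was 0.11 on the log2 scale (SE 0.19, adjusted p = 0.609, edgeR).

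In the inguinal-adipocyte set the gene with the largest ratio in adipocytes, 19.8-fold (1 transcript of 3655 bases), had 0.46, 0.39 and 0.43 TPM in EAT adipocytes and 9.51, 12.8 and 8.77 TPM in IAT adipocytes. Its SVC levels were 2.52, 2.13 and 3.35 TPM in EAT and 0.50, 0.54 and 0.64 TPM in IAT, so EAT adipocytes and IAT SVCs were both near 0.5 TPM. The gene with the largest ratio in SVCs, 21.7-fold (2 transcripts), had 5.63, 4.04 and 10.2 TPM in EAT SVCs and 0.14, 0.25 and 0.24 TPM in IAT SVCs, the latter from 13 counts. In adipocytes it had 26.01, 8.88 and 30.9 TPM in EAT and 76.8, 64.8 and 64.1 TPM in IAT. Replicate 2 was the low library in EAT adipocytes for this gene.

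In the epididymal-adipocyte set the 12 genes higher in SVCs had median levels of 12.2 and 4.24 TPM in EAT and IAT adipocytes and 27.0 and 46.1 TPM in EAT and IAT SVCs. The most abundant (3 transcripts) had 177, 123 and 129 TPM in EAT adipocytes and 46.2, 50.8 and 49.3 TPM in IAT adipocytes. In SVCs it had 233, 251 and 217 TPM in EAT and 403, 382 and 390 TPM in IAT. Its replicates were tight in every group but EAT adipocytes, where the SD was 29.6 TPM on a mean of 143 TPM. The 4 genes higher in adipocytes had median levels of 9.59 and 4.54 TPM in EAT and IAT adipocytes and 0.585 and 2.28 TPM in EAT and IAT SVCs. The most abundant of these (2 transcripts) had 11.3, 23.6 and 10.2 TPM in EAT adipocytes and 7.96, 9.33 and 7.19 TPM in IAT adipocytes. In IAT SVCs it had 0.47, 0.37 and 0.22 TPM, and in EAT SVCs 1 count in all, so its SVC contrast rests on 1 and 9 counts.

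Fitted to counts, the depot contrasts that chose the members passed for most of them. Since the rule used these contrasts, the counts describe the members and support nothing. In adipocytes 79 of the 90 genes were called lower in EAT (18.1% of all tested genes were) and 16 of the 17 higher (21.6%). In SVCs 74 of 90 were called higher in EAT (7.77%) and 12 of 17 lower (6.86%). The interaction, which asks whether the depot difference differed between fractions, was called more negative in adipocytes for 88 of 90 (7.76%) and more positive for 16 of 17 (10.4%). By edgeR alone 130 genes were lower in EAT adipocytes and higher in EAT SVCs. The 66 genes shared with the inguinal-adipocyte set were 73.3% of that set and 50.8% of the 130. In the other direction 12 genes were shared, 70.6% of the 17 and 25.5% of the 47 called.

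Each library was also set against members chosen without it, which is the same measure in a library the choice did not use. The other depot's libraries and the rest of the library's own group had taken part in the choice. A share above that of all genes, which were not chosen, was therefore favoured beforehand. The shares are a description and support nothing. For genes chosen in the inguinal-adipocyte direction, the left-out library lay beyond all 3 libraries of the other depot in 90.6% to 96.9% of 83 to 110 genes. Over all genes of at least 2 TPM these shares were 29.98% to 57.8%. In the epididymal-adipocyte direction the share was 51.6% to 100% of 18 to 31 genes, against 24.4% to 46.6% over all genes. The lowest value was for EAT adipocyte replicate 2, which lay beyond the IAT adipocytes in 16 of the 31 genes chosen without it and had a median ratio of 1.33-fold.

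**Figure D5:**
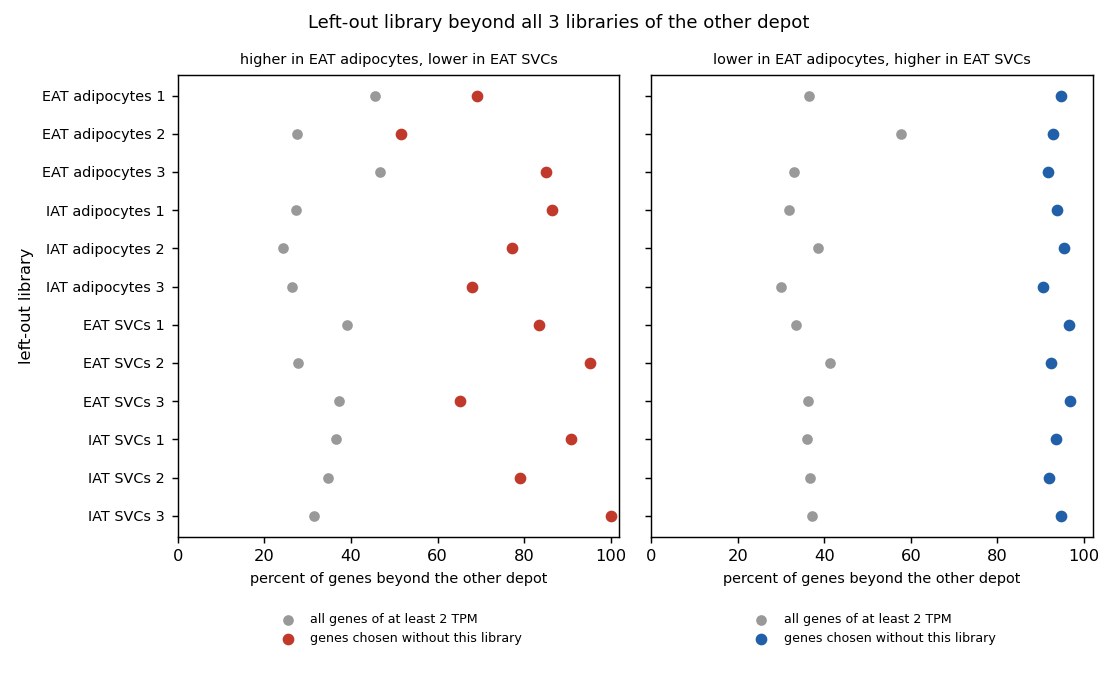
For each library (y axis), the percent of genes chosen without it in which it lay beyond all 3 libraries of the other depot in the chosen direction (coloured), and the same over all genes of at least 2 TPM (grey). Blue points lie between 90.6% and 96.9%, and red points between 51.6% and 100%, lowest for EAT adipocyte replicate 2.

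EAT adipocyte replicate 2 differed from replicates 1 and 3 of its group by a chi-square per degree of freedom of 174 and 154, against 28.5 between those and at most 49.4 within the other groups. Over genes of at least 2 TPM its median log2 deviation from replicates 1 and 3 was -0.48. In the epididymal-adipocyte set this was -0.45 and in the inguinal-adipocyte set -0.28, so that the library was low in both. Drawn without it, 31 genes were epididymal-adipocyte and 83 inguinal-adipocyte, sharing 16 of the 17 and 75 of the 90. Without EAT adipocyte replicate 1 they were 26 and 96. The epididymal-adipocyte share of all members was 15.9% by TPM, 26.2% by the deposited FPKM, and 27.2% by TPM without replicate 2. Leaving out each of the 12 libraries in turn, 8 of the 17 and 58 of the 90 genes stayed members every time.

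The median gene length was 1733 bases in the epididymal-adipocyte set, 2788 bases in the inguinal-adipocyte set and 2599 bases over genes of at least 2 TPM. A single transcript was listed for 4 of 17 genes, 29 of 90 genes and 32.5% of the genes of at least 2 TPM. At least 1 estimated count that was not whole, which arises where reads were divided among genes, was found for 1 of 17, 19 of 90 and 25.6%. The median coefficient of variation was 27.8% in EAT adipocytes, 15.3% in IAT adipocytes, 18.7% in EAT SVCs and 17.2% in IAT SVCs for members, against 27.6%, 11.2%, 9.30% and 8.74% over genes of at least 2 TPM.

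Of the 107 members, 2 pairs carried consecutive running numbers in the deposited tables, both in the inguinal-adipocyte set and both seen only after selection. In 1 pair both genes had 1 transcript, of 2032 and 2060 bases. The first had means of 64.4 and 154 TPM in EAT and IAT adipocytes and 119 and 38.8 TPM in EAT and IAT SVCs. The second had 78.4 and 197 TPM in adipocytes but 2.88 and 0.907 TPM in SVCs, so the pair was alike in adipocytes and far apart in SVCs. The other pair was uc007zsl.2 and a gene of 3 transcripts, with 0.477 and 0.953 TPM in EAT and IAT adipocytes and 20.4 and 1.01 TPM in EAT and IAT SVCs.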

How the data were processed

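RNA-seq tables of 12 libraries (4 groups of 3) were used. Per the file headers, the authors deposited, for each gene, expected counts from RSEM, TPM, FPKM and other values (length and effective length). Bowtie2 2.2.6, RSEM 1.2.25, limma, mm10 and GRCm38 are listed, without roles, in the submitters' processing notes. How strand was treated is not given in the sources, which leaves values of overlapping, antisense and near-identical genes uncertain. The members, sets and tests were chosen with earlier results of these data known.

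Members were drawn from deposited TPM by the rule above. Named genes were the 2 of each set with the largest smaller ratio. For tests, expected counts were rounded, scaled with TMM and filtered with filterByExpr (15813 of 32182 genes kept), and all 12 libraries were fitted with 1 coefficient per group (edgeR 4.0.16 quasi-likelihood, R 4.3.3, two-sided, Benjamini-Hochberg over all tested genes, threshold 0.05; 8 residual degrees of freedom). SE is the log2 difference over the square root of F. Depth was 20707325 to 26349357 expected counts; counting intervals cover counting error only. The rule and the fraction test were run on simulated data with planted differences. Simulated libraries for the rule varied far less than the real ones, and no depot difference was simulated for the fit. These runs check the steps only and do not show how noise moves membership. Replicate numbers recur in all groups; alternatives were DESeq2 1.42.0, limma-voom (limma 3.58.1), other scalings and filters, a replicate block, other thresholds of the rule and leaving out each library. Gene lists by symbol were not analysed here.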

Additional observations from a re-analysis of the deposited data

Results flagged for a closer look

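By edgeR's interaction test the EAT-to-IAT ratio was not the same in both fractions for 16 of the 17 genes of the epididymal-adipocyte set and 88 of the 90 of the inguinal-adipocyte set. The rule chose them on that contrast, so this is a description. The interaction was 3.88 on the log2 scale for uc009ggf.1, 4.47 for uc009sdg.3, -5.07 for uc009qty.2 and -5.996 for uc007zsl.2. In each of these genes all 3 EAT libraries lay on one side of the IAT libraries in adipocytes and on the other side in SVCs. No gap test for a single outlying sample was run, since it needs larger groups; EAT adipocyte replicate 2 was set apart by its counts, as given above.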

How the results depend on the processing

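The number of members moved with the rule's settings. The epididymal-adipocyte set became 3 genes at a ratio of 2, 74 at 1.3 and 53 with no condition on overlap, and 18 to 31 when 1 library was left out. The inguinal-adipocyte set became 41 genes at a ratio of 2, 207 at 1.3 and 121 with no condition on overlap. It held 59 genes with a pseudocount of 1 TPM, 54 with a minimum of 10 TPM, and 83 to 110 when 1 library was left out. The epididymal-adipocyte share of all members thus moved too. It was 15.9% by the main rule, 6.82% at a ratio of 2 and 30.5% with no condition on overlap. On CPM with TMM-scaled library sizes the sets held 24 and 98 genes, sharing 16 and 73 with those drawn on TPM. Members higher in adipocytes than SVCs numbered 68 and those higher in SVCs 31; over 6 other fits these were 66 to 69 and 28 to 32, and with 1 library left out 67 to 69 and 27 to 31. With the replicate block they were 68 and 30, and it moved the adipocyte depot calls of the inguinal-adipocyte set from 79 to 85 and left its SVC depot calls at 74. Same-numbered libraries correlated above 0.1 in all 3 numbers for 2 of 6 pairs of groups, IAT SVCs with IAT adipocytes and with EAT SVCs. The correlations of all 6 pairs ranged from -0.061 to 0.23, and all but the lowest were above 0. Whether same-numbered libraries share animals or were processed together was not tested. The main fit did not take the numbers to pair the samples. The 4 named genes kept the direction of the fraction difference averaged over depots, with an adjusted p below 0.05, under every alternative fit run. With 3 libraries a group, membership near the ratio threshold turned on single libraries: 9 of the 17 and 32 of the 90 genes left the sets when some library was left out.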
